A study of Homo sapiens with 27 samples.

Results

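The 7 genes described here encode receptors of the tumour necrosis factor (TNF) receptor superfamily that stand at the cell surface and leave it by endocytosis: TNFRSF10A, TNFRSF10B, TNFRSF1A, LTBR, TNFRSF21, TNFRSF12A and FAS. They were chosen by symbol, with earlier results of these data known, and all 7 were found among the 10470 genes of the deposited table. RNA came from DLD1, a human colorectal carcinoma cell line, in 9 groups of 3 libraries (27 in all), each replicate carrying its own batch label. In the order of the figures the groups were siVPS37ABC#1 (siRNAs to VPS37A, VPS37B and VPS37C together), the pairs siVPS37AB#1, siVPS37AC#1 and siVPS37BC#1, the single knockdowns siVPS37A#1, siVPS37B#1 and siVPS37C#1, the control mixture siCTRL#1 of non-targeting siRNAs, and NT, cells that were not transfected. All cells were collected 72 h after transfection or, for NT, without it. Every group with a given paralog as target used the same single siRNA sequence for it, so loss of the paralog and other effects of that sequence cannot be told apart here. The labels do not give the make-up of siCTRL#1.

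VPS37A, VPS37B and VPS37C are alternative subunits of ESCRT-I, a complex that helps to sort ubiquitinated membrane proteins into vesicles inside endosomes, which then fuse with lysosomes. TNF receptors are switched on by ligands that hold them in clusters, and several of them can also signal without ligand when they build up inside the cell. Receptors with a death domain (TNFRSF1A, FAS, TNFRSF10A, TNFRSF10B and TNFRSF21) can recruit adaptors of cell death, and TNFRSF1A, LTBR and TNFRSF12A recruit TRAF proteins that lead to NF-kB. The values here are levels of transcripts, and receptor protein was not measured in these files.

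The siRNAs lowered their targets. VPS37A stood at 5.54 to 9.11% of siCTRL#1 in the 4 groups with its siRNA, VPS37B at 3.35 to 7.42% and VPS37C at 21.6 to 28.7%. In knockdowns without their own siRNA VPS37A stood at 69.4% (siVPS37BC#1) to 95.2%, VPS37B at 104 to 138% and VPS37C at 105 to 135%. VPS37A averaged 5.80 ± 0.93 TPM in siCTRL#1 (SD, n = 3), under the minimum of 10 TPM for the test, and stood at 78.8% in NT. The epithelial markers EPCAM, KRT8, KRT18, CDH1, VIL1 and CDX2 summed to 6036 to 10450 TPM in the 27 libraries, although VIL1 lay at 0.809 to 3.82 TPM. Of 10 leukocyte, fibroblast and endothelial markers 4 were in the table, none of them at 0 in any library, and they summed to 9.78 to 20.6 TPM. TPM are shares of a library total, so a change in a receptor is a change relative to all other transcripts, and in bulk RNA more transcript per cell cannot be told apart from more cells that carry it. Each library was prepared from amplicons of a fixed panel, and the levels of different receptors are therefore not ranked against each other.

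TNFRSF10A, the TRAIL receptor also called DR4, was higher wherever VPS37A was silenced together with another paralog. Its level was 60.6, 55.8 and 69.7 TPM in siVPS37ABC#1, against 38.4, 33.3 and 37.9 TPM in siCTRL#1. In siVPS37AB#1 it was 61.5, 53.3 and 69.97 TPM. In siVPS37AC#1 it was 58.0, 57.4 and 61.2 TPM. Every library of these 3 knockdowns lay above every siCTRL#1 library, and the group means were 1.70, 1.69 and 1.61 times that of siCTRL#1. Changes below are on the scale of log2(TPM + 1), which understates those of low genes, and a gene is called where the adjusted p of limma over the 6458 tested genes is under 0.05. TNFRSF10A rose by 0.75 ± 0.14 (SE, n = 3 each) in siVPS37ABC#1 (adjusted p = 0.000418). The rise was 0.73 ± 0.14 in siVPS37AB#1 (adjusted p = 0.000951) and 0.68 ± 0.14 in siVPS37AC#1 (adjusted p = 0.00644). These 3 calls held when any single library of the groups compared was left out.

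**Figure D1:**
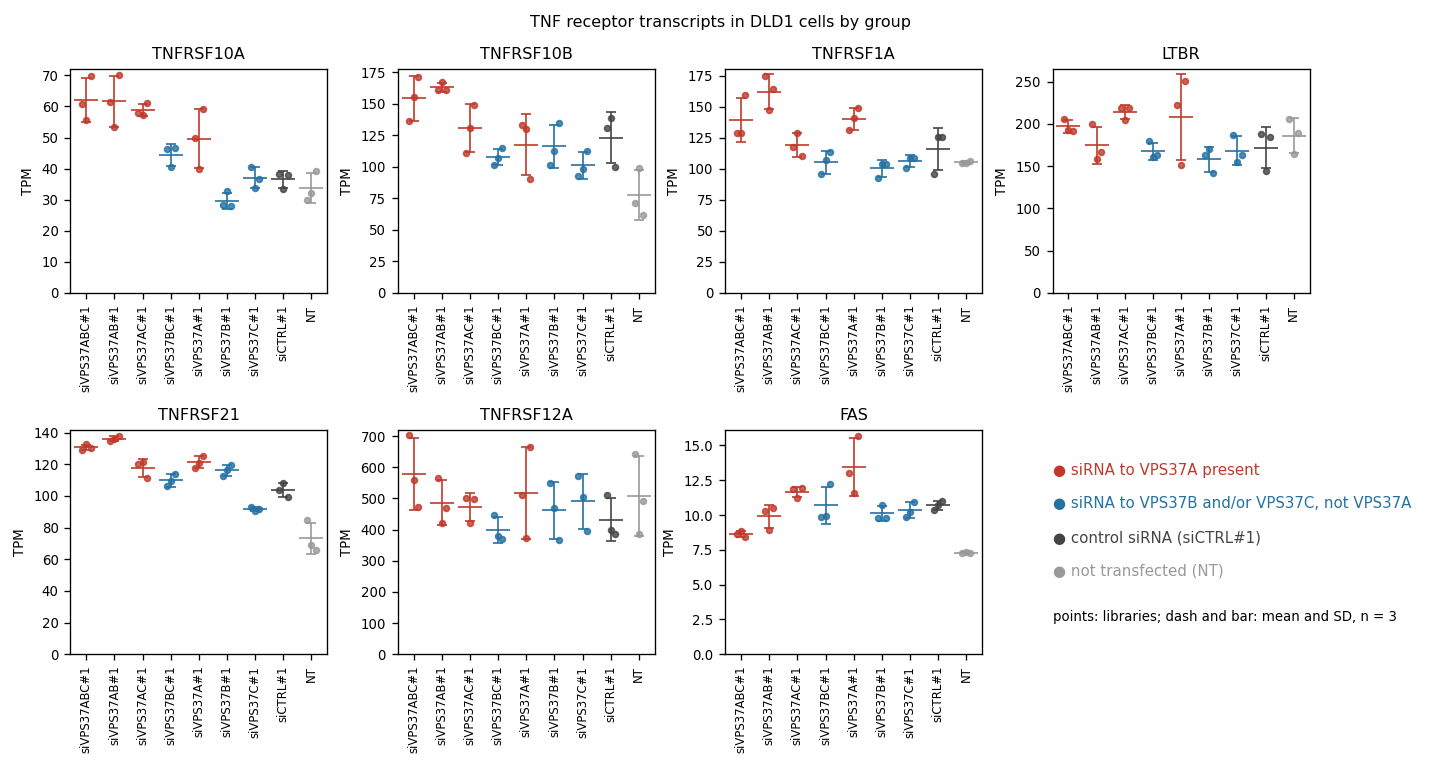
Transcript level (TPM, linear axes from 0) of each of the 7 receptors in the 27 libraries by group. Points are libraries, the dash and bar are mean and SD of 3 replicates, and colour marks groups with the VPS37A siRNA, other knockdowns, siCTRL#1 and NT. TNFRSF10A stood between 53.3 and 69.97 TPM in the triple knockdown and the 2 pairs with VPS37A, against 33.3 to 38.4 TPM in siCTRL#1.

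The single knockdowns gave smaller or opposite differences in TNFRSF10A. The siVPS37A#1 libraries had 49.96, 39.98 and 59.0 TPM, all above siCTRL#1 but widely spread. The difference was 0.42 ± 0.14 (SE, n = 3 each; adjusted p = 0.16), which passed once the replicate number was included as a block (adjusted p = 0.033) or without siVPS37A#1 replicate 2 (adjusted p = 0.048). It did not pass with the library number in the model (0.34, adjusted p = 0.377), and the lowest value without a single library was 0.29 (adjusted p up to 0.565). The siVPS37B#1 libraries had 28.2, 32.7 and 28.1 TPM. All of them lay below the siCTRL#1 libraries, with a change of -0.29 that did not pass (adjusted p = 0.316). The siVPS37C#1 libraries, at 40.6, 33.8 and 36.7 TPM, overlapped those of siCTRL#1 (change 0.02, adjusted p = 0.995). The pair without VPS37A, siVPS37BC#1, had 46.5, 40.4 and 46.6 TPM, above every siCTRL#1 library, with a change of 0.28 (adjusted p = 0.45). By group mean the order ran siVPS37ABC#1, siVPS37AB#1, siVPS37AC#1, siVPS37A#1, siVPS37BC#1, siVPS37C#1, siCTRL#1, NT and siVPS37B#1, and every neighbour in it overlapped the next. NT cells had 30.1, 32.1 and 39.3 TPM.

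The number that ends each library description, which the labels do not explain, coincides largely with group. Number 88 is shared by siVPS37ABC#1 replicate 3, siVPS37AC#1 replicate 3 and siCTRL#1 replicates 1 and 2. Within it TNFRSF10A was 0.94 (log2) higher in the siVPS37ABC#1 library than the mean of the siCTRL#1 libraries, and 0.76 higher in the siVPS37AC#1 library. No siVPS37AB#1 library shares a number with siCTRL#1. With that number as a term in the model the rise of TNFRSF10A was 0.82 in siVPS37ABC#1, 0.73 in siVPS37AB#1 and 0.75 in siVPS37AC#1, with adjusted p of 0.000297, 0.00527 and 0.0024.

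TNFRSF10B (DR5), the other TRAIL receptor with a death domain, varied more between replicates than TNFRSF10A in siCTRL#1. It had 136, 155 and 172 TPM in siVPS37ABC#1, against 131, 138 and 99.9 TPM in siCTRL#1, and the groups overlapped. In siVPS37AB#1 its level was 161, 167 and 161 TPM, above every siCTRL#1 library. Neither difference passed, at 0.33 ± 0.17 (SE, n = 3 each; adjusted p = 0.18) and 0.42 ± 0.17 (adjusted p = 0.107). The lowest siCTRL#1 library, replicate 3, carries another library number than replicates 1 and 2. With the library number in the model the differences were 0.54 (adjusted p = 0.0179) and 0.81 (adjusted p = 0.0052), and both passed. Within number 88 the siVPS37ABC#1 library was 0.35 above the mean of the siCTRL#1 libraries. No siVPS37AB#1 library shares a number with siCTRL#1, so 0.81 rests on links through other groups. Neither difference passed with the replicate block (limma adjusted p = 0.118 and 0.0596) or after quantile normalization (adjusted p = 0.231 and 0.191). In siVPS37AC#1 TNFRSF10B had 111, 131 and 149 TPM, and in siVPS37BC#1 102, 107 and 115 TPM. The single knockdowns ran from 90.2 to 133 TPM with siVPS37A#1, from 101.5 to 135 TPM with siVPS37B#1 and from 92.6 to 113 TPM with siVPS37C#1. All of these overlapped siCTRL#1, and changes lay between -0.27 and 0.09, with none called. By mean the order ran siVPS37AB#1, siVPS37ABC#1, siVPS37AC#1, siCTRL#1, siVPS37A#1, siVPS37B#1, siVPS37BC#1, siVPS37C#1 and NT, with overlap between all neighbours.

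TNFRSF1A, the main receptor for TNF in most tissues, was called only in siVPS37AB#1 among the knockdowns set against siCTRL#1. It had 175, 147 and 164 TPM in siVPS37AB#1, against 96.1, 126 and 126 TPM in siCTRL#1. The groups did not overlap, and the rise was 0.49 ± 0.12 (SE, n = 3 each; adjusted p = 0.00816). Without siVPS37AB#1 replicate 1 it missed the threshold (adjusted p = 0.052), as it did without siCTRL#1 replicate 1 (adjusted p = 0.073). The siVPS37ABC#1 libraries had 129, 129 and 160 TPM and also lay above every siCTRL#1 library, yet their difference of 0.27 did not pass (adjusted p = 0.131). The siVPS37A#1 libraries, at 131, 141 and 149 TPM, did so too, with 0.28 (adjusted p = 0.319). In siVPS37AC#1 the level was 118, 129 and 110 TPM, overlapping siCTRL#1, with a difference of 0.05. The groups without the VPS37A siRNA lay lower, between 92.4 and 114 TPM in siVPS37BC#1, siVPS37B#1 and siVPS37C#1 together, and none was called. NT libraries had 104, 105 and 107 TPM. By mean the order ran siVPS37AB#1, siVPS37A#1, siVPS37ABC#1, siVPS37AC#1, siCTRL#1, siVPS37C#1, siVPS37BC#1, NT and siVPS37B#1, and each neighbour overlapped the next except NT and siVPS37B#1.

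TNFRSF21, also known as DR6, had little spread within groups. It had 129, 133 and 130 TPM in siVPS37ABC#1 and 135, 136 and 138 TPM in siVPS37AB#1, against 104, 108 and 99.2 TPM in siCTRL#1. The rise was 0.33 ± 0.10 (SE, n = 3 each; adjusted p = 0.0185) in siVPS37ABC#1 and 0.39 ± 0.10 (adjusted p = 0.00951) in siVPS37AB#1. Both missed the threshold with the library number in the model, at 0.28 (adjusted p = 0.075) and 0.33 (adjusted p = 0.088). The siVPS37ABC#1 call was also lost without siVPS37ABC#1 replicate 2 (adjusted p = 0.058) and without siCTRL#1 replicate 3 (adjusted p = 0.075), after quantile normalization (0.27, adjusted p = 0.0573) and in a fit on these 2 groups alone (adjusted p = 0.118). In siVPS37AC#1 the libraries had 120, 121 and 111 TPM, all above siCTRL#1, with a difference of 0.18 (adjusted p = 0.374). The siVPS37A#1 libraries, at 117, 121 and 125 TPM, and the siVPS37B#1 libraries, at 112, 116 and 120 TPM, also lay above siCTRL#1 without being called. The siVPS37BC#1 libraries, at 106, 109 and 114 TPM, overlapped it. The siVPS37C#1 libraries were the only knockdown libraries that all lay below siCTRL#1 for this gene, at 92.8, 90.5 and 92.0 TPM (change -0.17, adjusted p = 0.744). Untransfected cells were lower still, at 84.5, 69.2 and 66.1 TPM. By mean the order ran siVPS37AB#1, siVPS37ABC#1, siVPS37A#1, siVPS37AC#1, siVPS37B#1, siVPS37BC#1, siCTRL#1, siVPS37C#1 and NT. In it siVPS37AB#1, siVPS37ABC#1 and siVPS37A#1 did not overlap, nor did siCTRL#1, siVPS37C#1 and NT, while the neighbours between them did.

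FAS, the receptor of the Fas ligand, was not called in any knockdown against siCTRL#1, and its groups stood in another order than those of the receptors above. Its level was 8.63, 8.82 and 8.43 TPM in siVPS37ABC#1, against 10.4, 10.7 and 11.0 TPM in siCTRL#1. All 3 siVPS37ABC#1 libraries lay below all siCTRL#1 libraries, but the change of -0.28 ± 0.12 (SE, n = 3 each) did not pass (adjusted p = 0.112). After quantile normalization it was -0.35 and passed (adjusted p = 0.0265). In siVPS37A#1 the level was 13.03, 11.6 and 15.7 TPM, above every siCTRL#1 library, with a difference of 0.30 that did not pass (adjusted p = 0.293). The siVPS37AC#1 libraries had 11.8, 11.2 and 11.9 TPM, also above siCTRL#1, with 0.12 (adjusted p = 0.707). In siVPS37AB#1 FAS had 10.3, 8.96 and 10.5 TPM, in siVPS37BC#1 9.89, 9.96 and 12.2 TPM, in siVPS37B#1 9.80, 10.7 and 9.80 TPM, and in siVPS37C#1 9.84, 10.2 and 11.0 TPM. These 4 groups overlapped siCTRL#1. By mean FAS ran siVPS37A#1, siVPS37AC#1, siVPS37BC#1, siCTRL#1, siVPS37C#1, siVPS37B#1, siVPS37AB#1, siVPS37ABC#1 and NT, and siVPS37AB#1, siVPS37ABC#1 and NT did not overlap.

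LTBR and TNFRSF12A were called in no knockdown against siCTRL#1. LTBR, the lymphotoxin-beta receptor, which acts through the non-canonical NF-kB pathway, had 206, 193 and 192 TPM in siVPS37ABC#1 and 219, 205 and 219 TPM in siVPS37AC#1, against 188, 144 and 184 TPM in siCTRL#1. Libraries of both knockdowns lay above those of siCTRL#1, by 0.20 ± 0.15 (SE, n = 3 each; adjusted p = 0.36) and 0.33 ± 0.15 (adjusted p = 0.253). The siVPS37A#1 libraries were the most spread, at 222, 151 and 251 TPM. The remaining knockdowns ran from 142 to 200 TPM and overlapped siCTRL#1. TNFRSF12A (Fn14), the receptor of TWEAK, had 702, 559 and 473 TPM in siVPS37ABC#1, against 511, 397 and 387 TPM in siCTRL#1, and the groups overlapped. Each siVPS37ABC#1 library nevertheless exceeded the siCTRL#1 library of the same replicate number. The difference of 0.41 ± 0.21 (SE, n = 3 each; adjusted p = 0.16) passed with the replicate number as a block (adjusted p = 0.0446), but was 0.13 with the library number in the model (adjusted p = 0.664). In the other knockdowns TNFRSF12A ran from 368 to 666 TPM, overlapping siCTRL#1 in each group, with differences between -0.11 and 0.23. The highest and lowest group means of LTBR were 215 TPM in siVPS37AC#1 and 158 TPM in siVPS37B#1, those of TNFRSF12A 578 TPM in siVPS37ABC#1 and 399 TPM in siVPS37BC#1, and in both genes every neighbour in the order overlapped the next.

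**Figure D2:**
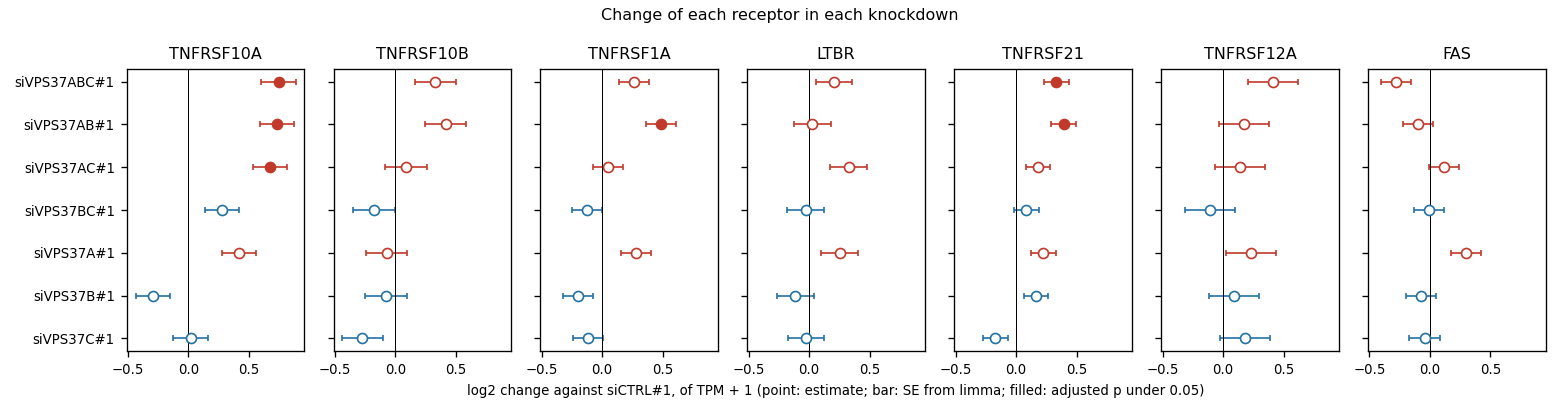
Change of each receptor in each knockdown against siCTRL#1 (log2 of TPM + 1, horizontal axis), with knockdowns from the triple at the top to siVPS37C#1 at the bottom. Points are estimates and bars SE from limma (n = 3 each), filled points passed the adjusted threshold, and red marks groups with the VPS37A siRNA. The filled points are TNFRSF10A in siVPS37ABC#1, siVPS37AB#1 and siVPS37AC#1, TNFRSF21 in siVPS37ABC#1 and siVPS37AB#1, and TNFRSF1A in siVPS37AB#1.

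Counted over the receptors, 2 of 7 were called higher in siVPS37ABC#1, where 13.6% of all tested genes were. In siVPS37AB#1 it was 3 of 7, against 11.2% of all tested genes, and in siVPS37AC#1 1 of 7, against 3.07%. No receptor was called lower in these 3 knockdowns. The median change of the 7 was 0.33 in siVPS37ABC#1, 0.39 in siVPS37AB#1 and 0.14 in siVPS37AC#1, where the medians of all tested genes were 0.03, 0.07 and 0.07. Limma called none of the 7 in siVPS37A#1, siVPS37B#1, siVPS37C#1 and siVPS37BC#1, where 1.83%, 1.72%, 0.496% and 1.29% of all tested genes were called in either direction. At an unadjusted p under 0.05 there were 4 receptors in siVPS37A#1 (TNFRSF10A, TNFRSF1A, TNFRSF21 and FAS, all higher) and 0 in the other 3 groups. Of all 6458 tested genes 854 had such a p in siVPS37A#1, 1038 in siVPS37B#1, 522 in siVPS37C#1 and 798 in siVPS37BC#1. The 7 comparisons share the siCTRL#1 libraries. Because the receptors were chosen with earlier results of these data known, their shares and medians are no independent test of the group. Quantile normalization gave 765 higher genes of 1518 called in siVPS37ABC#1, against 880 of 1417 without it. The counts were 520 of 969, against 723 of 956, in siVPS37AB#1, and 114 of 240, against 198 of 284, in siVPS37AC#1.

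Promoter sequences of the called receptors TNFRSF21 and TNFRSF1A (RefSeq, GRCh38.p14, 250 bases before to 50 after the start of transcription) are shown with that of LTBR, which was not called. Promoters of TNFRSF10A, also called, and of TNFRSF10B were not searched for motifs and are not reported here. Capitals mark an E-box (CACGTG, the same on both strands, bound by MYC and by the lysosomal regulator TFEB among others).
TNFRSF21, chr6:47309856-47310155, minus strand: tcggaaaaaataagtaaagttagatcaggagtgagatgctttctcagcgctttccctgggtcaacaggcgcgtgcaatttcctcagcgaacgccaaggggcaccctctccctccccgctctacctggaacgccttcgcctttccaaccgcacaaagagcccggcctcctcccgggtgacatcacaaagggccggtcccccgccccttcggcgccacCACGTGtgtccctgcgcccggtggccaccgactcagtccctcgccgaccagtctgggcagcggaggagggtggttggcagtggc
TNFRSF1A, chr12:6342027-6342326, minus strand: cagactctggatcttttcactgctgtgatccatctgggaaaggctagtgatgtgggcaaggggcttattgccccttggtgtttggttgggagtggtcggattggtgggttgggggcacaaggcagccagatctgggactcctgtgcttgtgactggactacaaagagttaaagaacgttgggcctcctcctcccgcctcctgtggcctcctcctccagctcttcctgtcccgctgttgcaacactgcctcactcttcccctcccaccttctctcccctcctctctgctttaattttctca
LTBR, chr12:6383912-6384211, plus strand: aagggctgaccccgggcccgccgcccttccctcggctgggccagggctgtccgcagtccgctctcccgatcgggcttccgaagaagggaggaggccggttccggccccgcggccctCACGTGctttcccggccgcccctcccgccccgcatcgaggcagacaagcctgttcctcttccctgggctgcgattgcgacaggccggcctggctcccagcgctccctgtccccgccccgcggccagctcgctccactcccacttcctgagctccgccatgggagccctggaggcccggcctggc
The E-box was found once in TNFRSF21 and once in LTBR and not in TNFRSF1A, and 7.26% of 35116 promoters of the same length hold it. Of 3 FAS promoters 1 held an AP-1 motif (TGANTCA on either strand; 7.71% of promoters) and another an NF-kB motif (11.3% of promoters). Neither of these 2 motifs was found in the promoters printed above, and no found motif overlapped another. A match describes the letters of the window and no binding was measured.

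Transfection with siCTRL#1 was itself accompanied by higher levels of 3 of the 7 receptors relative to NT, where 1.01% of all tested genes were called higher. TNFRSF21 had 104, 108 and 99.2 TPM in siCTRL#1, against 84.5, 69.2 and 66.1 TPM in NT, a rise of 0.50 ± 0.10 (SE, n = 3 each; adjusted p = 0.0051). TNFRSF10B had 131, 138 and 99.9 TPM in siCTRL#1, against 71.6, 99.4 and 61.8 TPM in NT, a rise of 0.67 ± 0.17 (adjusted p = 0.028). FAS had 10.4, 10.7 and 11.0 TPM in siCTRL#1, against 7.26, 7.37 and 7.28 TPM in NT, a rise of 0.49 ± 0.12 (adjusted p = 0.0255). In all 3 genes no siCTRL#1 library overlapped an NT library. The TNFRSF21 call held without any single library (adjusted p of 0.00189 to 0.036), but a fit on siCTRL#1 and NT alone called none of the 3 (adjusted p of 0.167 for TNFRSF21, 0.136 for TNFRSF10B and 0.179 for FAS). The FAS call was lost without any siCTRL#1 replicate and without NT replicate 1 or 3 (highest adjusted p = 0.102), and the TNFRSF10B call without siCTRL#1 replicate 1 or 2 and without NT replicate 1 or 3 (highest adjusted p = 0.177). The other 4 receptors differed by -0.21 to 0.13 and were not called. All libraries of siCTRL#1 and NT carry the same library number within a replicate.

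The antisense strands of the custom control duplexes named in the labels are printed here because siCTRL#1 may hold them. Capitals mark the seed, bases 2 to 8, through which an siRNA can also lower transcripts other than its target.
NC3 antisense: cUACGAUAgaccggucgua
NC4 antisense: aCGUGACAcguucggagaa
No site matching either antisense seed was found in the GENCODE v29 transcripts of the 7 receptors examined, 1 for each gene. The sense strand of NC4 had 1 seed site in LTBR.

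The choice of control therefore moved the values of TNFRSF21, TNFRSF10B and FAS in every knockdown. For each gene this shift is 1 difference, that between siCTRL#1 and NT, repeated in every knockdown. Calls of a gene over the knockdowns are therefore not independent. Set against NT, TNFRSF21 was called higher in 6 of the 7 knockdowns, by 0.59 to 0.89, and siVPS37C#1 was the exception. TNFRSF10B was called higher in 5 of 7, with rises of 1.00 in siVPS37ABC#1 and 1.09 in siVPS37AB#1. FAS was called higher in 5 of 7, with the largest rise, 0.79, in siVPS37A#1. TNFRSF10A rose in the same groups as against siCTRL#1, by 0.86 in siVPS37ABC#1, 0.85 in siVPS37AB#1 and 0.79 in siVPS37AC#1, and also passed in siVPS37A#1 (0.53, adjusted p = 0.0233). TNFRSF1A passed against NT in siVPS37ABC#1 (0.39), siVPS37AB#1 (0.62) and siVPS37A#1 (0.41). LTBR and TNFRSF12A passed in none. Against NT 924 of all 6458 tested genes were called higher in siVPS37ABC#1, 839 in siVPS37AB#1, 558 in siVPS37AC#1 and 180 in siVPS37BC#1. In the single knockdowns 290 were called higher in siVPS37A#1, 103 in siVPS37B#1 and 128 in siVPS37C#1. In either direction 1637, 1227, 910, 358, 458, 267 and 358 were called, in the same order.

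**Figure D3:**
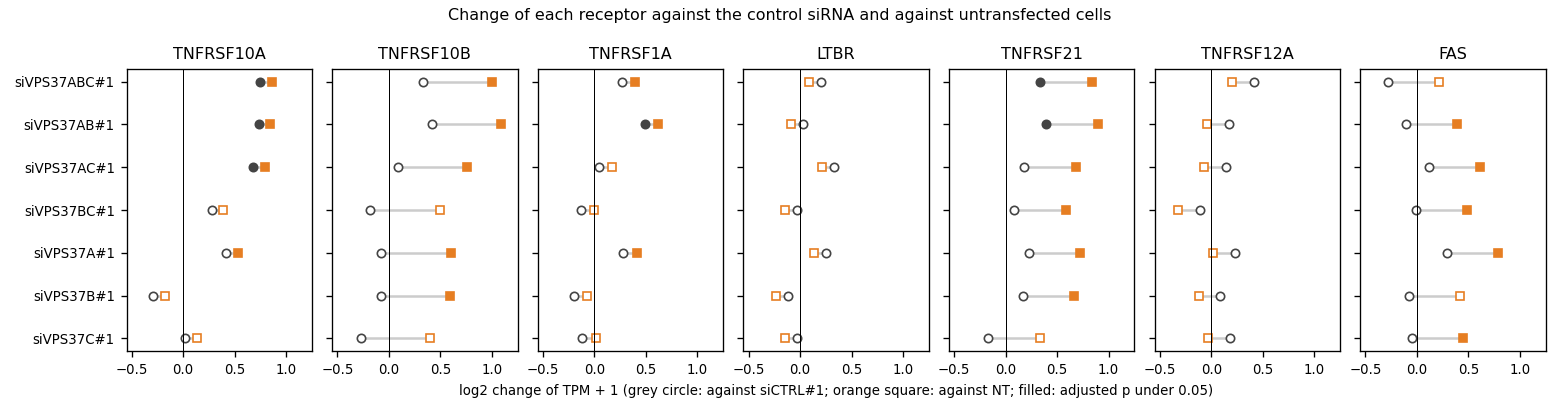
Change of each receptor in each knockdown (log2 of TPM + 1), against siCTRL#1 (grey circles) and against NT (orange squares), joined by a line. Filled symbols passed the adjusted threshold. The 2 symbols lie closest for TNFRSF10A, TNFRSF1A and LTBR and farthest apart for TNFRSF10B, by 0.67.

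Removing a further paralog from a pair was compared directly. Between siVPS37ABC#1 and siVPS37AB#1 limma called none of the 7 (0 at an unadjusted p under 0.05, beside 578 of 6458 tested genes), where 1.04% of all tested genes were called in either direction. TNFRSF10A averaged 62.0 ± 7.05 TPM in siVPS37ABC#1 and 61.6 ± 8.32 TPM in siVPS37AB#1 (SD, n = 3 each). Between siVPS37ABC#1 and siVPS37AC#1 none was called either, where 4.35% of all tested genes were, and 1 receptor had an unadjusted p under 0.05, beside 1146 of 6458 tested genes. That receptor was FAS, at 8.63, 8.82 and 8.43 TPM in siVPS37ABC#1, against 11.8, 11.2 and 11.9 TPM in siVPS37AC#1. Its change of -0.40 ± 0.12 (SE, n = 3 each; adjusted p = 0.0681) passed with the replicate block (adjusted p = 0.0206), with the library number (adjusted p = 0.0205) and after quantile normalization (adjusted p = 0.0469).

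The VPS37A siRNA on top of the other pair moved more receptors. Between siVPS37ABC#1 and siVPS37BC#1 2 of 7 were called higher, where 7.46% of all tested genes were. TNFRSF10A had 60.6, 55.8 and 69.7 TPM in siVPS37ABC#1, against 46.5, 40.4 and 46.6 TPM in siVPS37BC#1, a rise of 0.47 ± 0.14 (SE, n = 3 each; adjusted p = 0.0324). TNFRSF1A had 129, 129 and 160 TPM in siVPS37ABC#1, against 95.5, 107 and 114 TPM in siVPS37BC#1, a rise of 0.39 ± 0.12 (adjusted p = 0.0369). In both genes, and in TNFRSF10B, LTBR, TNFRSF21 and TNFRSF12A, every siVPS37ABC#1 library lay above every siVPS37BC#1 library, while for FAS every one lay below. The differences of TNFRSF10B (0.51, adjusted p = 0.0527) and TNFRSF12A (0.52, adjusted p = 0.104) passed with the replicate block (adjusted p = 0.0248 and 0.0187). With the library number in the model the difference of TNFRSF10B was 0.32 (adjusted p = 0.149), and without single libraries its adjusted p was 0.0462 to 0.182. The TNFRSF10A call was lost without any single library other than siVPS37ABC#1 replicate 2 (highest adjusted p = 0.145), and the TNFRSF1A call was lost without siVPS37ABC#1 replicate 3 and without siVPS37BC#1 replicate 1 or 2 (highest adjusted p = 0.19). Quantile normalization gave 453 higher genes of 880 called between these groups, against 482 of 776 without it.

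Adding 1 siRNA to a single knockdown gave a like contrast. Between siVPS37AB#1 and siVPS37B#1 2 of 7 were called higher, where 9.46% of all tested genes were and their median change was 0.10. TNFRSF10A had 61.5, 53.3 and 69.97 TPM in siVPS37AB#1, against 28.2, 32.7 and 28.1 TPM in siVPS37B#1, a rise of 1.02 ± 0.14 (SE, n = 3 each; adjusted p = 3.42e-05). TNFRSF1A had 175, 147 and 164 TPM in siVPS37AB#1, against 92.4, 104 and 104 TPM in siVPS37B#1, a rise of 0.69 ± 0.12 (adjusted p = 0.000499). Both calls held without any single library of these groups. TNFRSF10B lay higher in siVPS37AB#1 without overlap, by 0.49 (adjusted p = 0.0603), and passed with the replicate block (adjusted p = 0.0276) and without siVPS37B#1 replicate 3 (adjusted p = 0.0402; up to 0.232 without another library). Quantile normalization gave 423 higher genes of 787 called, against 611 of 799 without it. Between siVPS37AB#1 and siVPS37A#1 none of the 7 was called, where 2.09% of all tested genes were, and 3 had an unadjusted p under 0.05, beside 943 of 6458 tested genes. They were FAS at -0.40 (adjusted p = 0.0937), TNFRSF10B at 0.49 (adjusted p = 0.147) and TNFRSF10A at 0.31 (adjusted p = 0.305). FAS, lower in siVPS37AB#1 in every library, passed with the replicate block (adjusted p = 0.0284) and not with the library number in the model (adjusted p = 0.106).

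Whether a combined knockdown differed from the sum of its single knockdowns was tested as a departure on the log2 scale. For the 4 combinations limma called 0 of the 7 and 0% of all tested genes. At an unadjusted p under 0.05 there were 3 receptors for siVPS37AB#1, 0 for siVPS37AC#1, 1 for siVPS37BC#1 and 2 for siVPS37ABC#1, beside 483, 250, 300 and 449 of all tested genes. With the replicate block 33, 0, 2 and 18 genes were called, none of them a receptor. TNFRSF10A departed by 0.61 ± 0.20 (SE; adjusted p = 0.481) in siVPS37AB#1, by 0.24 in siVPS37AC#1, by 0.55 ± 0.20 (adjusted p = 0.985) in siVPS37BC#1 and by 0.60 ± 0.29 (adjusted p = 0.705) in siVPS37ABC#1. TNFRSF10B departed by 0.57 ± 0.24 (adjusted p = 0.585) in siVPS37AB#1 and by 0.75 ± 0.34 (adjusted p = 0.663) in siVPS37ABC#1. TNFRSF1A departed by 0.405 ± 0.17 (adjusted p = 0.586) in siVPS37AB#1. FAS, with single libraries left out, departed by -0.42 to -0.21 in siVPS37AB#1 and by -0.55 to -0.35 in siVPS37ABC#1. For siVPS37AC#1 that range was -0.23 to -0.03 and for siVPS37BC#1 0.02 to 0.16. The estimates for LTBR, TNFRSF21 and TNFRSF12A ran from -0.38 to 0.13 over the 4 combinations.

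Over the 9 group means the pattern of TNFRSF10B was most like that of TNFRSF21 among pairs of the 7 (Pearson's r = 0.930, log2 scale), and TNFRSF10A and TNFRSF1A followed (r = 0.810). FAS and TNFRSF12A were the least alike (r = -0.303). Across all other tested genes the nearest patterns to TNFRSF10A were those of RNF149 (r = 0.990), RBM7 (r = 0.982) and CLIC4 (r = 0.981). The nearest to TNFRSF21 were MAP7 (r = 0.952), SRP54 (r = 0.950) and ZFP91 (r = 0.949). Those nearest to TNFRSF1A were ACTR6 (r = 0.971), TAF13 (r = 0.966) and TTC9 (r = 0.963), and those nearest to TNFRSF10B were SLU7 (r = 0.976), PIP4K2C (r = 0.976) and TBCA (r = 0.972). For LTBR the nearest was TM9SF4 (r = 0.929), for TNFRSF12A LPAR2 (r = 0.949) and for FAS CENPJ (r = 0.965). These are the highest of 6457 values for each receptor over 9 points that share libraries and depth.

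Few other members of the superfamily could be tested. Of 22 further receptors 8 were in the table and 2 passed the minimum of 10 TPM. The decoy receptor TNFRSF10D, which binds TRAIL without a working death domain, averaged 27.2 ± 5.36 TPM in siVPS37ABC#1 and 21.4 ± 2.28 TPM in siCTRL#1 (SD, n = 3 each; change 0.32, adjusted p = 0.163). TNFRSF19 averaged 21.0 ± 2.37 TPM in siVPS37ABC#1 and 28.7 ± 5.96 TPM in siCTRL#1 (change -0.42, adjusted p = 0.208). Of 18 ligands 4 were in the table, and TNFSF12, which encodes TWEAK, was the only one tested. It averaged 12.6 ± 1.73 TPM in siVPS37ABC#1 and 15.2 ± 2.42 TPM in siCTRL#1 (change -0.25, adjusted p = 0.339).

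Downstream of the receptors, of 15 tested adaptors, kinases and ubiquitin enzymes 4 rose and 1 fell in siVPS37ABC#1, and 3 rose and 0 fell in siVPS37AB#1. Of all 6458 tested genes 880 rose and 537 fell in siVPS37ABC#1, and 723 rose and 233 fell in siVPS37AB#1. None of the 15 was called in siVPS37AC#1 (4 at an unadjusted p under 0.05, beside 1135 of all 6458 tested genes). The 4 that rose were CYLD, RBCK1, TAB2 and TAB3. CYLD, a deubiquitinase that restrains NF-kB, rose by 0.75 ± 0.16 (SE, n = 3 each; adjusted p = 0.000996). It averaged 8.02 ± 1.58 TPM in siCTRL#1 and 14.1 ± 1.82 TPM in siVPS37ABC#1 (SD, n = 3 each). Its siCTRL#1 mean lay under the minimum of 10 TPM, so it entered the test only through groups where it was higher. RBCK1 (HOIL-1), a subunit of the linear ubiquitin ligase, rose by 0.70 ± 0.16 (adjusted p = 0.00301). TAB2 and TAB3, partners of the kinase TAK1, rose by 0.56 ± 0.17 (adjusted p = 0.0153) and 0.49 ± 0.15 (adjusted p = 0.0169). Of 8 NF-kB subunits and inhibitors 3 rose in siVPS37ABC#1, 4 in siVPS37AB#1, 1 in siVPS37AC#1 and 1 in siVPS37A#1, and none fell. Among all 6458 tested genes 198 rose in siVPS37AC#1 and 77 in siVPS37A#1. NFKB2, the precursor of the non-canonical subunit p52, averaged 171 ± 32.1 TPM in siVPS37ABC#1 and 54.4 ± 17.1 TPM in siCTRL#1 (SD, n = 3 each), a rise of 1.67 ± 0.18 (SE; adjusted p = 2.22e-07). Its partner RELB rose by 1.32 ± 0.24 (adjusted p = 0.000211) and the inhibitor NFKBIE by 0.81 ± 0.20 (adjusted p = 0.00409). The median change was 0.28 for the adaptor list and 0.46 for the NF-kB list in siVPS37ABC#1, where that of all tested genes was 0.03. All gene lists, like the receptors, were chosen with earlier results of these data known.

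Other surface receptors known to be degraded in lysosomes were listed as well. Of 11 tested 4 rose in siVPS37ABC#1, 4 in siVPS37AB#1 and 3 in siVPS37AC#1, and none fell. Among all tested genes 13.6%, 11.2% and 3.07% rose in these knockdowns. MET, the receptor of hepatocyte growth factor, averaged 44.0 ± 7.61 TPM in siVPS37ABC#1 and 14.3 ± 2.18 TPM in siCTRL#1 (SD, n = 3 each), a rise of 1.55 ± 0.18 (SE; adjusted p = 6.95e-07). ITGA5, the alpha chain of a fibronectin receptor, rose by 1.37 ± 0.15 (adjusted p = 3.74e-07) and EGFR by 0.98 ± 0.13 (adjusted p = 3.61e-06). Of 7 stress and p53 genes 4 rose in siVPS37ABC#1, 4 in siVPS37AB#1, 1 in siVPS37AC#1 and 2 in siVPS37A#1. In siVPS37A#1 77 of all 6458 tested genes rose. CDKN1A, a cell cycle inhibitor, averaged 92.9 ± 8.53 TPM in siVPS37ABC#1 and 13.6 ± 5.12 TPM in siCTRL#1 (SD, n = 3 each), a rise of 2.74 ± 0.26 (SE; adjusted p = 2.5e-08), and ATF3 rose by 1.97 ± 0.27 (adjusted p = 5.71e-06). TNFRSF10A, TNFRSF10B and FAS are themselves known targets of p53 in human cells, and TNFRSF10A was the only one of them called in siVPS37ABC#1. Of 5 tested epithelial markers 1 was called higher and 1 lower in siVPS37ABC#1, with a median change of 0.16. EPCAM rose to 2003 ± 197 TPM in siVPS37ABC#1, against 1583 ± 65.6 TPM in siCTRL#1 (SD, n = 3 each). The intestinal marker CDX2 fell to 63.4 ± 17.98 TPM in siVPS37ABC#1, against 154 ± 17.0 TPM in siCTRL#1 (SD, n = 3 each; change -1.30, adjusted p = 1.06e-05), and its part in the receptor values was not tested.

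**Figure D4:**
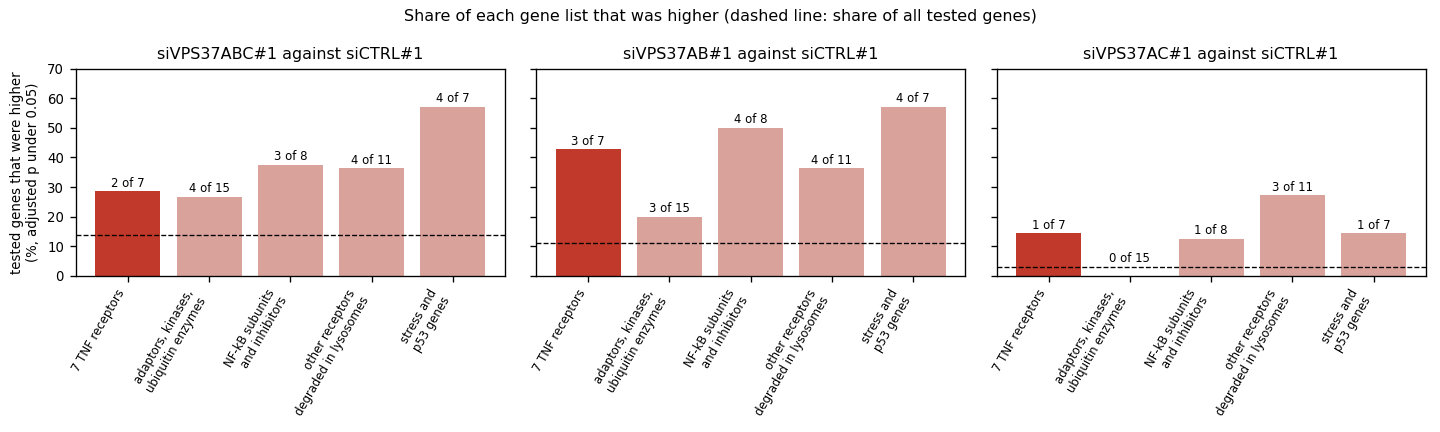
Share of tested genes called higher against siCTRL#1 (percent, bars from 0) in the 7 TNF receptors and 4 lists of related genes, in siVPS37ABC#1, siVPS37AB#1 and siVPS37AC#1. The dashed line is the share among all 6458 tested genes (13.6%, 11.2% and 3.07%), and the counts stand above the bars, for example 2 of 7 receptors and 4 of 7 stress and p53 genes in siVPS37ABC#1. Receptors and lists were chosen with earlier results of these data known.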

How the data were processed

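RNA of DLD1 cells was measured with an Ion AmpliSeq panel of human transcripts, which sequences amplicons, per the labels' protocols, in 27 libraries of 9 groups with 3 replicates each, which the labels call biological. The single deposited table holds 10470 genes, and its values were taken as TPM made by the authors before deposit, since every column sums to 1000000 and low values step more evenly once multiplied by transcript length (score 0.414 to 0.619) than as deposited (0.169 to 0.267; 150 low values, 10244 genes with a length). HTSeq 0.6.0 and DESeq2 1.18.1 stand in the submitters' processing notes, beside the build hg19, with no role given there. The submitters' name for the values is DESeq2 normalized counts. The unit TPM used here differs from that name and rests on the column sums and steps above. Whole reads could not be recovered, so the depth of each library is unknown, no counting error can be given, and the errors come from replicates. A panel that reads amplicons does not sample transcripts by length, and dividing by length then scales genes unequally.

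Values were analysed as log2(TPM + 1) with limma 3.58.1 in R 4.3.3, with 1 mean for each of the 9 groups over all 27 libraries (18 degrees of freedom left) and a variance prior that follows the level. A gene entered the test if its mean reached 10 TPM (6458 did, all 7 receptors among them), with Benjamini-Hochberg adjustment over them within each comparison and a threshold of 0.05. Unknown depth and 3 libraries a group limit the precision, and the median SE of a pairwise change was 0.173. Tables and plots used Python 3.11.15, pandas 2.3.3 and matplotlib 3.10.9. The test was checked on simulated data with independent noise in each library. Those data hold no replicate pairing and no library numbers, so the check does not cover their effect on the calls. The labels give replicates of one number the same batch, so the numbers pair the libraries. After removal of group means same-numbered libraries had a mean correlation of 0.355 (95 of 108 pairs over 0.1, lowest -0.386) and others -0.175, and a model with that number as a block was an alternative. The errors and calls of the main model leave out this pairing, and with the block more genes were called in every direct comparison of groups. Other alternatives were a term for the library number, other filters, pseudocounts and scaling, NT as control, fits on the compared groups only, and leaving out each library.

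The receptors and the gene lists were chosen with earlier results of these data known. From each list up to 4 genes with the smallest p past the threshold in siVPS37ABC#1 against siCTRL#1 were named, or 2 where none passed. For likeness the rule was the 3 tested genes with the highest Pearson r over the group means, of which the first only is printed for LTBR, TNFRSF12A and FAS. One listed gene that the rule takes is not reported here, and some others are left out for length. Transcripts came from GENCODE v29 and promoters from RefSeq on GRCh38.p14 (4 of 7 receptors were examined). No usable promoter entry was found for TNFRSF12A, and those of TNFRSF10A and TNFRSF10B are not reported here.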

Additional observations from a re-analysis of the deposited data

Results flagged for a closer look

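Adding the VPS37B siRNA had opposite directions with and without another knockdown in 3 instances. TNFRSF10A was higher by 0.29, 0.41 and 0.24 (log2, replicates 1 to 3) in siVPS37AB#1 than in siVPS37A#1, whereas siVPS37B#1 against siCTRL#1 gave -0.43, -0.03 and -0.42. The gap between the mean effects was 0.606 ± 0.20 (SE; limma, unadjusted p = 0.00611, adjusted p = 0.481). TNFRSF10A was also higher by 0.19, 0.25 and 0.34 in siVPS37BC#1 than in siVPS37C#1, a gap of 0.551 ± 0.20 to the same effect in siCTRL#1-treated cells (unadjusted p = 0.0117, adjusted p = 0.985). TNFRSF1A was higher by 0.42, 0.06 and 0.14 in siVPS37AB#1 than in siVPS37A#1, whereas siVPS37B#1 against siCTRL#1 gave -0.06, -0.27 and -0.27. That gap was 0.405 ± 0.17 (unadjusted p = 0.0288, adjusted p = 0.586). None of the 3 gaps passed the adjusted threshold, all 3 rest on the same siVPS37B#1 and siCTRL#1 libraries, and the first and the last on the same 4 groups. Leaving out single libraries moved them over 0.46 to 0.74, 0.49 to 0.62 and 0.34 to 0.53, with the sign kept and no adjusted p under 0.27.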

How the results depend on the processing

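Of 1870 results for single receptors under an alternative, 1722 kept their direction and their side of the threshold, 33 passed it newly, 30 no longer passed, 80 changed sign without being called, and 5 changed sign with a call. These 5 came with NT in place of siCTRL#1: TNFRSF10B at 0.60 in siVPS37A#1 and 0.60 in siVPS37B#1, and FAS at 0.45 in siVPS37C#1, 0.39 in siVPS37AB#1 and 0.49 in siVPS37BC#1. Most of the 1870 were not called in the main model, so for them keeping their side meant staying uncalled. The 30 that no longer passed come from the few that were called. With NT as control the receptors called were 5 in siVPS37A#1, 2 in siVPS37B#1, 1 in siVPS37C#1, 5 in siVPS37AB#1, 4 in siVPS37AC#1, 2 in siVPS37BC#1 and 4 in siVPS37ABC#1. With the replicate block they were 1 in siVPS37A#1, 1 between siVPS37ABC#1 and siVPS37AC#1, 4 between siVPS37ABC#1 and siVPS37BC#1 and 1 between siVPS37AB#1 and siVPS37A#1. Besides these the block changed the calls of TNFRSF12A in siVPS37ABC#1 and TNFRSF10B between siVPS37AB#1 and siVPS37B#1, and no other call of a receptor. Between siVPS37ABC#1 and siVPS37AC#1 1 was called with the library number and 1 after quantile normalization, which also gave 1 between siVPS37AB#1 and siVPS37A#1, in each instance FAS. A minimum mean of 50 TPM drops FAS and TNFRSF10A by construction and left 0 in siVPS37AC#1, 1 in siVPS37ABC#1, 1 between siVPS37ABC#1 and siVPS37BC#1 and 1 between siVPS37AB#1 and siVPS37B#1. Fits on the compared groups alone, with fewer libraries to estimate the spread, called 1 in siVPS37ABC#1, 0 between siCTRL#1 and NT and 1 between siVPS37ABC#1 and siVPS37BC#1. That one was TNFRSF10B (adjusted p = 0.0404), while TNFRSF10A (0.0663) and TNFRSF1A (0.112) were lost. Leaving out 1 library gave 0 to 1 in siVPS37A#1, 1 to 2 in siVPS37ABC#1, 1 to 3 between siCTRL#1 and NT and 0 to 2 between siVPS37ABC#1 and siVPS37BC#1. Counts over all genes are not given for the fits that left out a library. Where no cause is given it was not tested. Over all genes the block called 2137 in siVPS37ABC#1, against 1417 without it, 1652 against 956 in siVPS37AB#1, 762 against 284 in siVPS37AC#1, 283 against 83 in siVPS37BC#1, 409 against 118 in siVPS37A#1, 607 against 111 in siVPS37B#1, 134 against 32 in siVPS37C#1 572 against 205 between siCTRL#1 and NT, and, in the knockdowns set against each other, 789 against 281 between siVPS37ABC#1 and siVPS37AC#1, 1447 against 776 between siVPS37ABC#1 and siVPS37BC#1 and 513 against 135 between siVPS37AB#1 and siVPS37A#1. With NT as control 458, 267, 358, 1227, 910, 358 and 1637 of 6458 genes were called in the 7 knockdowns, in the order given above for the receptors. The library number gave 1224 genes in siVPS37AC#1, 657 between siCTRL#1 and NT and 830 between siVPS37ABC#1 and siVPS37AC#1. Quantile normalization gave 343 between siVPS37ABC#1 and siVPS37AC#1 and 167 between siVPS37AB#1 and siVPS37A#1. The minimum of 50 TPM left 2599 genes tested. It gave 549 in siVPS37ABC#1, 379 in siVPS37AB#1 and 121 in siVPS37AC#1. Between siVPS37ABC#1 and siVPS37BC#1 it gave 319, and between siVPS37AB#1 and siVPS37B#1 322. The compared groups alone gave 19 in siVPS37A#1, 8 in siVPS37B#1, 2 in siVPS37C#1 and 1033 in siVPS37ABC#1. They gave 80 between siCTRL#1 and NT and 600 between siVPS37ABC#1 and siVPS37BC#1. Tests on counts were not run, since whole reads could not be recovered. Depth is unknown, and the lowest receptor, FAS, lies near the minimum of 10 TPM.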
